A study of Mus musculus with 18 samples.

Results

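Wild-type (WT) mouse embryonic stem cells (ESCs) were compared across the sucrose gradient, with messages found in the high polysome fraction set against messages found in the monosome fraction. The comparison rests on 6 of the 18 libraries of the polysome series, namely the 3 WT high polysome and the 3 WT monosome libraries, paired by replicate number, which was taken to mark the gradient they were cut from. The spread behind the SE and p-values was estimated over all 18 libraries. The cells were of the V6.5 line, kept in the naive state with serum, LIF and the 2i inhibitors PD0325901 and CHIR99021, and were held in 100 ug/ml cycloheximide for 2 minutes before lysis, so that ribosomes stayed on their messages. Lysates were spun through 10 to 50% sucrose. The low polysome fraction held messages with 2 to 4 ribosomes and the high polysome fraction those with 4 or more. Of the other libraries, 3 are WT low polysomes and 9 come from Dgcr8 knockout (KO) ESCs, which lack microRNA processing and were taken through the same procedure. The labels name no separate lines or clones within a genotype.

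A message becomes a polysome when initiation is frequent enough to place several ribosomes on its reading frame at once. Messages whose initiation is held back, and short frames that have room for few ribosomes, stay with 1 ribosome or travel in low polysomes, and RNAs without a long reading frame carry few ribosomes or none. Among messages known for regulated loading are those that begin with a 5′ terminal oligopyrimidine tract (TOP), which encode ribosomal proteins and elongation factors and respond to mTOR, stress messages with upstream open reading frames (uORFs), and ferritin messages, which bind iron regulatory proteins. The ratio of high polysome to monosome was taken as the translation level of a gene, and it is given on the log2 scale, where positive values lie on the high polysome side.

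Sequences of a pair of groups are shown first, since short frames and TOP messages are among those described below. The first group is the 2 shortest reading frames measured with a mean of 50 counts or more. Rpl41, the smallest ribosomal protein (Rpl41, ENSMUSG00000093674.7, chromosome 10, 128548114 to 128549305, minus strand), has a coding sequence of 78 nt, and Ost4, a small subunit of the oligosaccharyltransferase (Ost4, ENSMUSG00000038803.7, chromosome 5, 30905885 to 30907788, minus strand), one of 114 nt. The coding sequences are those of GENCODE M21 on GRCm38, with the start and stop codons in capitals.
Rpl41: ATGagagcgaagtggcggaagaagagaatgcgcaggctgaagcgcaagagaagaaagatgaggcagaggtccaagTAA
Ost4: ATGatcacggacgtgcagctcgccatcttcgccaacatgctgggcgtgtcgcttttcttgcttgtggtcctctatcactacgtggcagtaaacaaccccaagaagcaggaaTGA
The second group is the start site windows of TOP messages. Each line gives 20 bases on each side of the RefSeq gene start on GRCm38.p6, with the longest uninterrupted run of C and T in capitals. Shown are the 4 ribosomal protein genes and the 2 other TOP genes with the lowest ratios among those whose window held a run of 9 or more.
Rps26 (chr10:128626487-128626526, minus strand): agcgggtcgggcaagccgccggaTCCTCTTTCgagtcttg
Rplp2 (chr7:141447631-141447670, plus strand): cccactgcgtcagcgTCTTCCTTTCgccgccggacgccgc
Rpl27a (chr7:109519175-109519214, plus strand): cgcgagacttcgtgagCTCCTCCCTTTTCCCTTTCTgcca
Rpl13a (chr7:45128726-45128765, minus strand): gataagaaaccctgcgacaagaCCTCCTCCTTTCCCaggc
Rack1 (chr11:48800340-48800379, plus strand): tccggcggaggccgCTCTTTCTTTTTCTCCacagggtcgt
Eef1a1 (chr9:78481705-78481744, minus strand): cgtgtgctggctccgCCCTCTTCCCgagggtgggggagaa

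Depth ran from 1151649 to 1578231 counts per monosome library and from 2495249 to 3063940 per high polysome library in WT cells. Within each of these groups the log2 levels of the 3 libraries correlated with Spearman's rho of 0.969 to 0.972 for monosomes and 0.984 to 0.985 for high polysomes, and no library stood apart. The log2 ratios of the 3 gradients correlated across genes with rho of 0.762 to 0.780. These correlations run over 12851 genes of the same libraries and are given as a description. All 10 ESC markers examined were tested, with a summed level of 3442 to 3583 CPM (counts scaled to the library total) in the monosome and 5659 to 6211 CPM in the high polysome libraries. The 8 markers of fibroblast feeder cells summed to 12.2 to 16.4 CPM in monosomes and 13.4 to 16 in high polysomes, with 2 of them without a read in either fraction. Markers of primitive endoderm summed to 13.1 to 20.3 and 20.9 to 35.3 CPM, and those of the primed epiblast to 129 to 140.4 and 143 to 157 CPM. Libraries were scaled to one another, by TMM factors for the ratios and the CPM of single genes and by their totals for the marker sums above. A ratio thus compares relative levels in 2 fractions, and how much RNA each fraction held was not measured by it.

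A gene was called where the Benjamini-Hochberg adjusted p of limma was under 0.05 and the ratio exceeded 1 log2 unit in size. Of 12851 genes tested, 3862 (30.1%) were called, 1347 (10.5%) of them toward high polysomes (called the high side) and 2515 (19.6%) toward monosomes. The median log2 ratio was -0.02, with an interquartile range from -0.83 to 0.60. All 3 high polysome libraries lay above all 3 monosome libraries for 3930 genes (30.6%) and below them for 3886 (30.2%). The mean level was highest in monosomes for 4408 genes, in low polysomes for 3600 and in high polysomes for 4843.

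The clearest division was between protein-coding messages and the rest. Among 11766 protein-coding genes, 1325 were called on the high side and 1747 on the monosome side, with a median log2 ratio of 0.06. Of the 1085 genes of all other classes, 768 (70.8%) were called on the monosome side and 22 (2.03%) on the high polysome side, with a median of -2.05. Long noncoding RNAs had 377 of 494 on the monosome side, 3 on the high polysome side and a median of -2.38. Genes of small nucleolar RNAs (snoRNAs), which guide modification of ribosomal RNA in the nucleolus, had 37 of 41 on the monosome side and a median of -3.24. Of the 41, 20 had 3 counts or fewer in every high polysome library. Some snoRNA genes overlap other genes on the same strand, such as Snhg12 and Eef2. Reads of such hosts could not be told apart from those of the snoRNA. Of 360 pseudogenes, 250 were called on the monosome side and 18 on the high polysome side. Reads that align to several loci were not counted, so those of a pseudogene are the reads that set it apart from its parent gene.

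**Figure D1:**
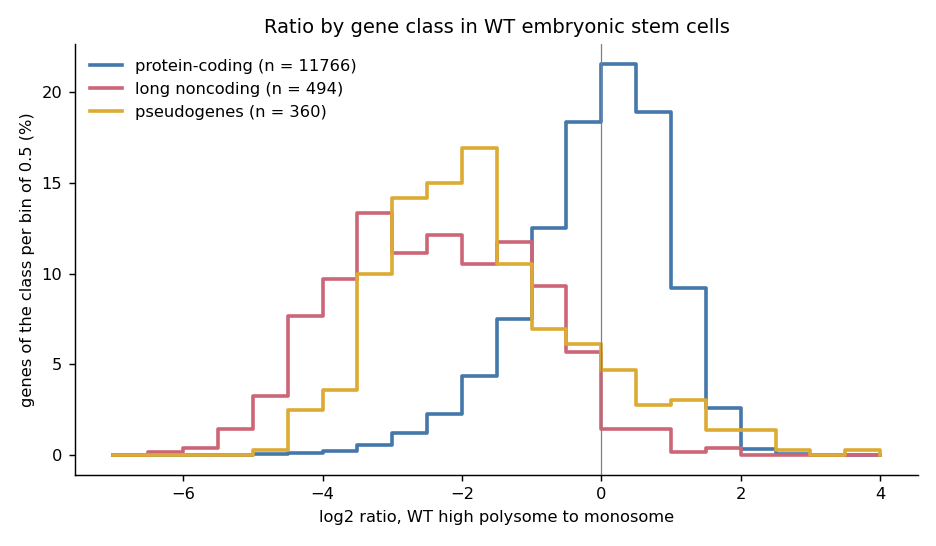
Share of the genes of each class (y axis, percent of the class per bin of 0.5) by log2 ratio of WT high polysome to monosome (x axis). The 11766 protein-coding genes centre on a median of 0.06, while the 494 long noncoding RNAs and 360 pseudogenes have medians of -2.38 and -1.88.

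Noncoding transcripts were followed by name. Malat1, a nuclear RNA of splicing speckles, had 3530.0, 5041 and 4152 CPM in the 3 monosome libraries and 174, 228 and 187 in the 3 high polysome libraries, a log2 ratio of -4.43 ± 0.11 (SE, adjusted p = 1.08e-33). Neat1, the scaffold of paraspeckles, had 233, 311 and 285 CPM in monosomes and 16.8, 18.7 and 14.6 in high polysomes, -4.05 ± 0.17 (SE, adjusted p = 3.26e-25). Meg3, an imprinted noncoding RNA, had a log2 ratio of -4.62 ± 0.11 (SE, adjusted p = 3.19e-34). For each of the 3, the groups were far apart, with the lowest monosome library over 10 times the highest high polysome library, and the low polysome libraries lay between them. The fixed list of other noncoding RNAs had 25 of 30 members on the monosome side, none on the high polysome side and a median of -3.03. Kcnq1ot1, the long antisense RNA of the Kcnq1 imprinted cluster, was among those not called, at -0.19 ± 0.23 (SE), as was the ESC transcript Lncenc1, at -0.91 ± 0.11.

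Spliced host RNAs of snoRNAs, which leave the nucleus and are known to be held down by nonsense-mediated decay, lay on the monosome side as well. All 17 tested members of the list were called there, with a median of -4.07 and medians per gradient of -4.02, -3.86 and -4.16. Gas5, which also carries a TOP tract, had 2066, 2122 and 2467 CPM in monosomes, 483, 511 and 560.2 in low polysomes and 146, 145 and 129 in high polysomes. Its libraries fell into 3 steps without overlap, and its log2 ratio was -3.98 ± 0.13 (SE, adjusted p = 9.64e-30). Snhg6 had 805, 716 and 931 CPM in monosomes and 30.8, 30.3 and 29.3 in high polysomes, -4.75 ± 0.16 (SE, adjusted p = 3.79e-29). Snhg12 was at -4.96 ± 0.23 and 1810032O08Rik, listed in RefSeq as Snhg16, at -5.42 ± 0.33. The highest of the members with a mean of 50 counts, Snhg5, Snhg3 and Snhg9, still lay at -3.43 ± 0.12, -3.44 ± 0.14 and -3.67 ± 0.22. Snhg11, which the annotation holds as protein-coding with a frame of 264 nt, had the lowest ratio of all protein-coding genes named here, -5.46 ± 0.24 (SE, adjusted p = 2.77e-24). The lowest noncoding entry, the microRNA gene Mir7079, at -5.66 ± 0.39, lies within Rpl13 and Gm20388 on the same strand, so reads of those genes could not be told apart from its own. The unsymbolled gene ENSMUSG00000097769 and the noncoding transcript 6720427I07Rik followed at -5.19 ± 0.25 and -4.78 ± 0.33.

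The noncoding entries on the high polysome side with a mean of 50 counts and all gradients on that side were 3 in number. Rps4l, annotated as a transcribed processed pseudogene of a ribosomal protein (Rps4l, ENSMUSG00000063171.4, chromosome 6, 148354656 to 148355598, plus strand), had 465, 456 and 477 CPM in monosomes, 752, 721 and 590.0 in low polysomes and 1861, 1488 and 1949 in high polysomes. All its high polysome libraries stood above all the others, and its log2 ratio was 1.91 ± 0.11 (SE, adjusted p = 5.79e-20). The gene of the related ribosomal protein on the X chromosome, Rps4x, was called on the opposite side at -1.78 ± 0.18 (SE, adjusted p = 8.11e-12). The pseudogene Gm9800 had 60.3, 56.1 and 66.3 CPM in monosomes and 139.6, 148 and 115 in high polysomes. Cct6a, which encodes a chaperonin subunit but is held as a processed transcript by this annotation, was at 1.004 ± 0.10.

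Messages made inside mitochondria lay far on the monosome side. These messages are read by mitochondrial ribosomes and never meet those of the cytosol. All 7 of the 13 that passed the filter were called on the monosome side, with a median log2 ratio of -4.23 and medians per gradient of -4.09, -3.87 and -4.09. mt-Cytb, the cytochrome b of complex III, had 4413, 4761 and 4154 CPM in monosomes, 629.7, 702 and 642 in low polysomes and 232, 196 and 221 in high polysomes. The 3 fractions did not overlap, and the log2 ratio was -4.36 ± 0.10 (SE, adjusted p = 5.97e-35). The complex I subunits spread from -4.43 ± 0.11 for mt-Nd4 to -2.79 ± 0.11 for mt-Nd5. mt-Co1, of cytochrome oxidase, was at -4.23 ± 0.15.

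**Figure D2:**
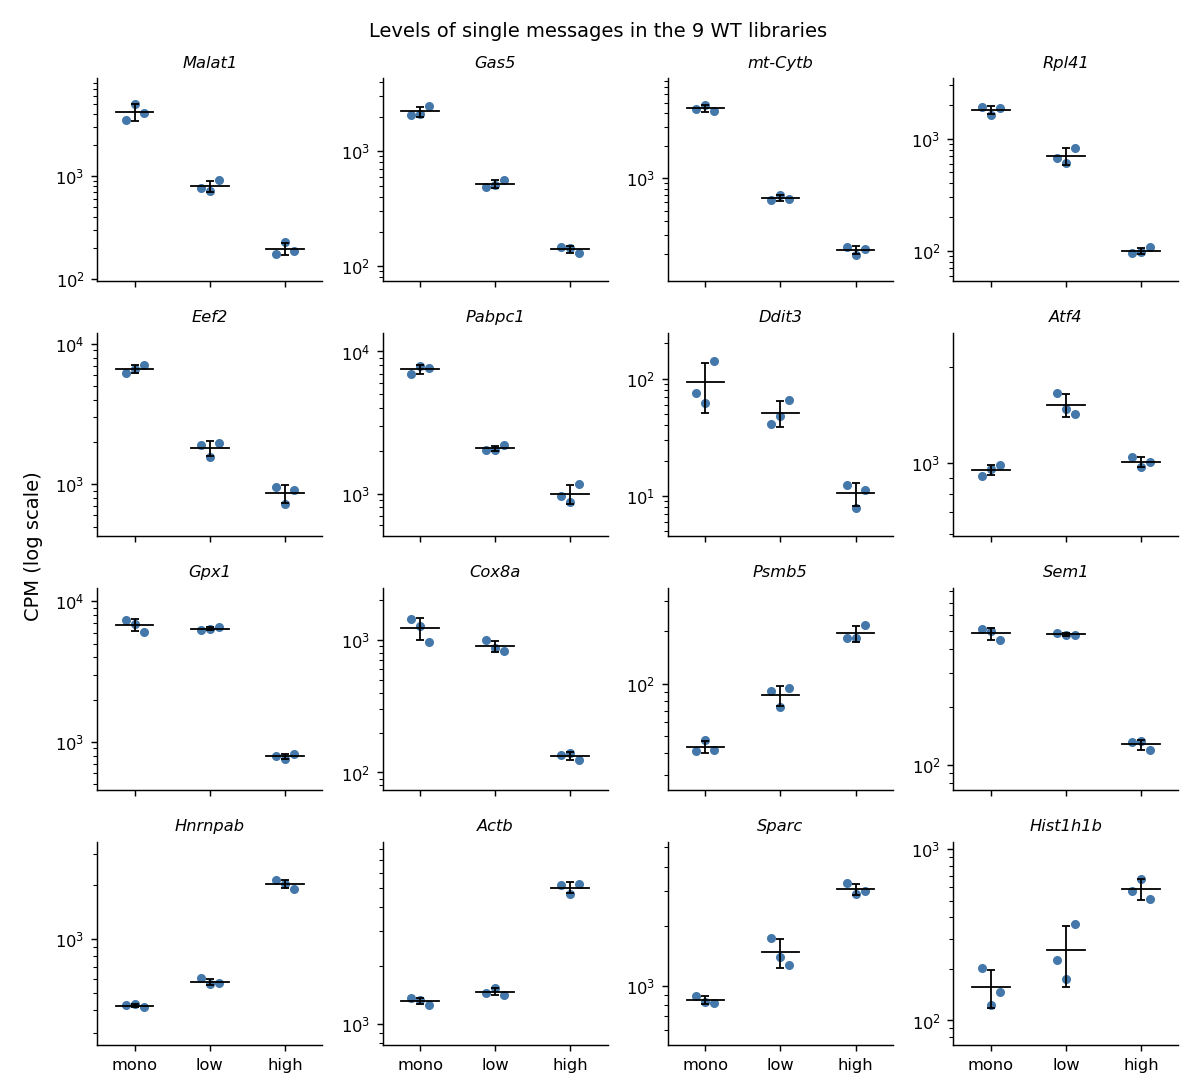
Level in CPM (y axis, log scale, each panel with its own range) of 16 messages in the 3 monosome, 3 low polysome and 3 high polysome WT libraries (x axis). Points are libraries, long bars means and error bars the SD (n = 3). Malat1, Gas5, mt-Cytb and Rpl41 fall step by step, Gpx1 and Sem1 keep their level into low polysomes and fall in high polysomes, Atf4 peaks in low polysomes, and Psmb5, Hnrnpab, Actb, Sparc and Hist1h1b are highest in high polysomes.

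Messages of the cytosolic ribosome lay almost entirely on the monosome side. Of 78 ribosomal protein genes tested, 70 were called there and none on the high polysome side, against backgrounds of 19.6% and 10.5%. Their median log2 ratio was -2.06, with medians per gradient of -1.99, -2.01 and -2.24. The 9 members under 100 residues had a median of -3.20 and the 69 longer ones of -1.93. Large subunit genes had 42 of 46 on the monosome side with a median of -1.84, and small subunit genes 28 of 31 with a median of -2.23. Rpl41 had 1936, 1637 and 1879 CPM in monosomes, 674, 605 and 833 in low polysomes and 95.6, 97.3 and 108 in high polysomes, a ratio of -4.18 ± 0.15 (SE, adjusted p = 4.17e-28). Rps13 had 192, 252 and 187 CPM in monosomes against 16.4, 13 and 13.1 in high polysomes, -3.89 ± 0.19 (SE, adjusted p = 2.19e-22). Neither gene had overlapping groups. Rps28 followed at -3.24 ± 0.13. Without the fold threshold, 1 ribosomal protein gene and 1 other TOP gene, Rps27a and Eef1d, were called on the high polysome side. Members not called included Rps27a, at 0.61 ± 0.21, and Rps25, at -0.58 ± 0.10. Rpl39, with a frame of 156 nt, was at -3.20 ± 0.12, while its paralog Rpl39l, with a frame of the same length, was at -0.96 ± 0.11. Many ribosomal protein genes have processed copies, and only reads that align once were counted, so the levels of single members, Rps27a among them, are uncertain.

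The other messages known for a TOP tract lay on the same side. Of 17 tested, 11 (64.7%) were called on the monosome side and none on the high polysome side, against 19.6% and 10.5% of all genes. Their median was -2.08, with medians per gradient of -1.80, -2.08 and -2.18. Eef2, the translocase of elongation (Eef2, ENSMUSG00000034994.10, chromosome 10, 81176631 to 81182498, plus strand), had 6193, 6630.1 and 7119.7 CPM in monosomes, 1912, 1553 and 1959 in low polysomes and 963, 723 and 918 in high polysomes. Pabpc1, the cytosolic poly(A) binding protein, had 6913, 7906 and 7709 CPM in monosomes and 957, 875 and 1163 in high polysomes. Their log2 ratios were -2.94 ± 0.10 (SE, adjusted p = 4.78e-28) and -2.92 ± 0.09 (SE, adjusted p = 1.23e-29), and in both genes each monosome library was more than 5 times each high polysome library. Eef1b2, a guanine nucleotide exchange factor of elongation, was at -2.47 ± 0.10 and Eef1a1, the carrier of aminoacyl-tRNA, at -2.24 ± 0.11. The frames of these messages were not short, with a list median of 1122 nt and no protein under 100 residues. Not called were Eif3e, the nucleolar chaperone Npm1 and the exchange factor Eef1d, at -0.20 ± 0.13, -0.03 ± 0.11 and 0.51 ± 0.12.

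The annotated start windows were searched for the tract. A run of 9 or more C or T within 20 bases on either side of the start, on the sense strand, was present for 27 of the 57 ribosomal protein genes with a RefSeq window (47.4%) and 4 of 11 other TOP genes (36.4%), against 13.3% of the 9619 genes tested that had a window and 10.7% of all 32851 windows. The annotated start need not be the base at which the transcript begins in ESCs. Within the ribosomal protein genes, the median log2 ratio was -1.85 with a run and -2.35 without one, and over all genes tested -0.03 with a run and 0.03 without. Genes of the ribosomal protein list thus lay low with and without a run. Motif matches are a description of these windows only.

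Factors that act at initiation, recycling and release had calls on both sides but leaned to the high polysome side. Of 40 tested, 10 (25%) were called on the high side and 4 (10%) on the monosome side, against 10.5% and 19.6% of all genes. The list median was 0.51, and 30 of the 40 lay above 0. Eif5a, which relieves stalled ribosomes, had 500.3, 530.5 and 445 CPM in monosomes and 1389, 1364 and 1435 in high polysomes, 1.51 ± 0.11 (SE, adjusted p = 1.38e-16). Eif6, an anti-association factor of the large subunit, was at 1.60 ± 0.15 and Eif1ax, of the scanning complex, at 1.47 ± 0.12. On the other side were Eif4ebp2, a repressor of cap-dependent initiation, with 1449.9, 1498 and 1385 CPM in monosomes and 298, 289 and 329 in high polysomes, -2.24 ± 0.10 (SE, adjusted p = 2.29e-23), the helicase Eif4a2 at -1.94 ± 0.13 and the start codon factor Eif1 at -1.29 ± 0.10. Groups did not overlap for any of these 6 genes.

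Frame length was examined over all protein-coding genes. Genes were cut into 10 classes of equal size by frame. In the class with the shortest frames, 78 to 525 nt, 468 of 1179 (39.7%) were called on the monosome side and 63 on the high polysome side, with a median log2 ratio of -0.73. In the 9 other classes the median lay between -0.04 and 0.26, and it was 0.25 in the class with the longest frames, from 3417 nt, where 135 of 1177 were called on the high side and 67 on the monosome side. Of 248 genes for proteins of under 100 residues, 164 (66.1%) were called on the monosome side and none on the high polysome side, with a median of -1.60. Without the ribosomal protein, other TOP and histone lists, 155 of 239 such genes were called on the monosome side, with a median of -1.56. Spearman's rho between coding length and ratio was 0.39 over the 2362 genes with frames up to 735 nt and -0.09 over the 8224 with frames of 738 to 3411 nt. Across all 11763 genes with a frame, rho was 0.10 for coding length, 0.03 for 5′ UTR length and 0.11 for 3′ UTR length. The points of these correlations are genes of the same 6 libraries.

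The shortest frames held named examples of many functions. Ost4 was at -3.91 ± 0.22 (SE, adjusted p = 3.07e-20). The actin-binding thymosins Tmsb4x and Tmsb10, each with a frame of 135 nt, were at -3.19 ± 0.14 and -3.27 ± 0.16. Tomm7 and Tomm5, small subunits of the outer membrane translocase of mitochondria, were at -2.88 ± 0.10 and -2.81 ± 0.22, and Cops9, the smallest signalosome subunit, at -3.41 ± 0.17. All these genes were called on the monosome side. These examples, other than Rpl41, were chosen after their values were seen.

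**Figure D3:**
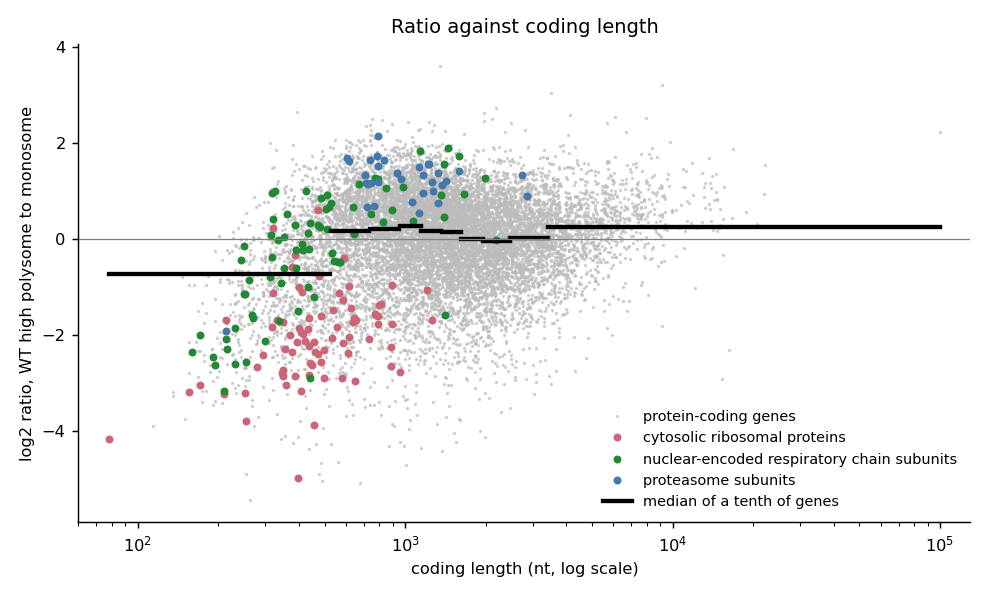
Log2 ratio of WT high polysome to monosome (y axis) against coding length in nt (x axis, log scale) for protein-coding genes in grey, with ribosomal protein, respiratory chain and proteasome genes in colour and the median of each of 10 length classes as a black bar. The bar of the shortest class lies at -0.73 and the others between -0.04 and 0.26. Most ribosomal protein genes lie low, with a median of -3.20 for the 9 under 100 residues and -1.93 for the 69 longer ones. The respiratory chain genes that lie lowest have short frames.

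Families with small and large subunits were split along the same line. Of 76 nuclear-encoded respiratory chain genes, 10 (13.2%) were called on the high side and 20 (26.3%) on the monosome side, with a median of -0.02. The shares of all genes were 10.5% and 19.6%. Members under 100 residues had 15 of 18 on the monosome side and a median of -2.05, longer members 5 of 58 and a median of 0.31. Cox8a, a small subunit of cytochrome oxidase, had 1435, 1262 and 971 CPM in monosomes, 993, 865 and 826 in low polysomes and 135, 141 and 125 in high polysomes, -3.18 ± 0.12 (SE, adjusted p = 1.75e-26). Uqcrc1, a core subunit of complex III with a frame of 1443 nt, had 136, 120.0 and 108 CPM in monosomes, 195, 212 and 189 in low polysomes and 440.4, 443 and 470.4 in high polysomes, 1.89 ± 0.13 (SE, adjusted p = 4.17e-17). The 2 genes run in opposite directions along the gradient without overlap between monosome and high polysome libraries. Of the members, 47 had their highest mean level in low polysomes. Uqcr10 and Ndufc1 were at -2.64 ± 0.10 and -2.61 ± 0.11, and the catalytic ATP synthase subunit Atp5b at 1.72 ± 0.10.

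Mitochondrial ribosomal protein genes had a median of 0.24, with 8 of 77 (10.4%) on the high side and 11 (14.3%) on the monosome side, against 10.5% and 19.6% of all genes, so that they stood apart from the ribosomal proteins of the cytosol by more than 2 log2 units in the median. Under the stricter filter of 10 CPM, the count on the high polysome side was 3. Mrpl33 was lowest of the members named, at -2.68 ± 0.12, and Mrpl3 highest, at 1.41 ± 0.17. The Sm and Lsm proteins, which form the rings of spliceosomal and decay complexes, had 5 of 23 (21.7%) on the high side and 8 (34.8%) on the monosome side. Snrpg, with a frame of 231 nt, had 145, 152 and 156 CPM in monosomes and 30.4, 28.1 and 22 in high polysomes, -2.501 ± 0.16 (SE, adjusted p = 2.11e-18). Snrpb, with a frame of 696 nt, had 137, 96.8 and 102 and 493, 474 and 432 CPM, 2.06 ± 0.13 (SE, adjusted p = 6.21e-19). Snrpd3 has a frame of 381 nt and was at 1.96 ± 0.10. Of the 23 tested, 13 had their highest mean level in low polysomes.

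Proteasome subunits were the list highest on the high polysome side. Of 33 tested, 25 (75.8%) were called there, against 10.5% of all genes. The list median was 1.25, with medians per gradient of 1.22, 1.22 and 1.25. Psmb5, a catalytic subunit of the core particle (Psmb5, ENSMUSG00000022193.6, chromosome 14, 54614119 to 54618022, minus strand), had 40.9, 47.1 and 41.6 CPM in monosomes, 90.6, 73.1 and 93.9 in low polysomes and 182, 183 and 219 in high polysomes, 2.15 ± 0.17 (SE, adjusted p = 4.12e-15). The 3 fractions rose without overlap. Psma4 and Psmb2 were at 1.72 ± 0.16 and 1.68 ± 0.17. Psmb1 and the ubiquitin receptor Psmd4 were not called, at 0.67 ± 0.11 and 0.54 ± 0.11. The 1 member called on the monosome side was Sem1, which is also the 1 member under 100 residues, with a frame of 213 nt. Sem1 had 509.6, 498 and 444 CPM in monosomes, 486, 473 and 472 in low polysomes and 131, 132 and 118 in high polysomes, -1.93 ± 0.10 (SE, adjusted p = 1.05e-20).

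The protein-coding genes with the highest ratios were varied in function. Celsr1, an atypical cadherin of planar polarity with a frame of 9105 nt, had 4.02, 4.52 and 3.54 CPM in monosomes and 42.1, 39.3 and 40.4 in high polysomes, 3.20 ± 0.39 (SE, adjusted p = 1.29e-09). Its monosome libraries held 6, 7 and 4 counts, so the size of this ratio is loosely determined. Bahcc1 and the semaphorin receptor Plxna1, also with long frames, were at 2.53 ± 0.29 and 2.42 ± 0.21. Hnrnpab, an RNA binding protein, had 426, 433 and 417 CPM in monosomes, 603, 559 and 567 in low polysomes and 2135, 2036 and 1917 in high polysomes, 2.25 ± 0.10 (SE, adjusted p = 1.95e-24). The golgin Golga4, the G protein subunit Gnai3 and the membrane protein Itm2a were at 2.22 ± 0.26, 2.13 ± 0.22 and 2.13 ± 0.25. Ywhah and Ywhaz, phosphoserine adaptors of the YWHA family, were at 2.38 ± 0.30 and 2.17 ± 0.13. Of the 6 Ywha genes tested, a family looked at after these values were seen, 5 were called on the high polysome side and the sixth, Ywhab, was at 0.99 ± 0.12, with a family median of 1.82.

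At the other end of the protein-coding genes, beside the mitochondrial messages, Rpl41 and Snhg11, stood Cnpy1 and the predicted gene Gm47283, at -4.38 ± 0.27 and -4.28 ± 0.19, and Tagap1, related to GTPase activating proteins, at -4.06 ± 0.31.

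Messages of matrix, adhesion and sterol synthesis leaned to the high polysome side. Of all genes, 10.5% were called on that side and 19.6% on the monosome side. Of 33 basement membrane and adhesion genes, 14 (42.4%) were called on the high polysome side and none on the monosome side, with a median of 0.92. Sparc, a matrix glycoprotein, had 890.0, 828 and 819.6 CPM in monosomes and 3299, 2895 and 3005 in high polysomes, 1.86 ± 0.11 (SE, adjusted p = 4.85e-20), and the adhesion molecule Epcam was at 1.87 ± 0.16. Jup, Lamb2 and Lama5 were not called, at -0.81 ± 0.13, 0.0049 ± 0.20 and 0.16 ± 0.19. Of 25 genes of cholesterol synthesis and uptake, 10 (40%) were called on the high side and none on the monosome side, with a median of 0.87. Fdps, which makes farnesyl diphosphate, was at 1.62 ± 0.22 (SE) and Acat2 at 1.61 ± 0.14, while the regulators Insig2 and Srebf1 were not called, at -0.81 ± 0.16 and -0.16 ± 0.15.

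**Figure D4:**
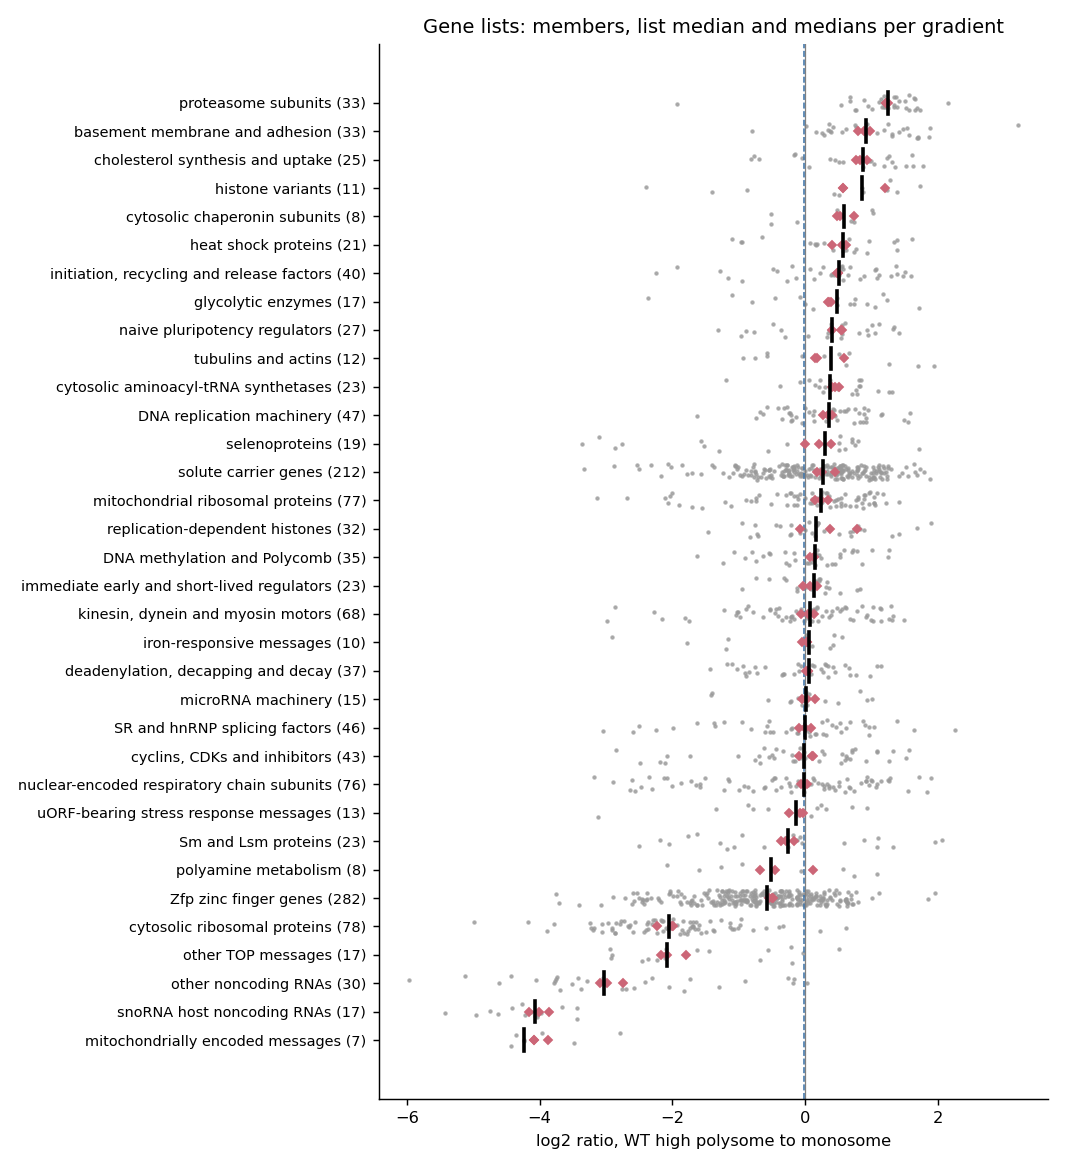
Log2 ratio of WT high polysome to monosome (x axis) for the members of 34 gene lists (rows, number tested in brackets). Grey points are genes, black bars list medians, red diamonds the list medians in each of the 3 gradients, and the dashed line the median of all genes, -0.02. Proteasome, adhesion and cholesterol lists lie at the top, and ribosomal protein, other TOP, noncoding and mitochondrially encoded lists lie below -2.

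Calls among tubulin, actin, heat shock and chaperonin genes were mostly on the high polysome side, though most members of these lists were not called. Of all genes, 10.5% were called on that side and 19.6% on the monosome side. Actb, the cytoplasmic beta actin, had 1355, 1336 and 1258 CPM in monosomes, 1451, 1542 and 1416 in low polysomes and 5214, 4693 and 5248 in high polysomes, 1.94 ± 0.10 (SE, adjusted p = 7.16e-22). The abundant tubulins Tubb5 and Tuba1b were not called, at -0.94 ± 0.10 and -0.76 ± 0.11, while Tubg1 and Tubb6 were called on the high polysome side at 1.26 ± 0.14 and 1.70 ± 0.27. In all, 3 of 12 tubulin and actin genes (25%) were called high and none on the monosome side. The mean level was highest in high polysomes for 7 of the 12 and in monosomes for 5. Of 21 heat shock genes, 4 were called on the high polysome side, among them Hsp90aa1 with 119, 116 and 88.4 CPM in monosomes and 293, 394 and 305 in high polysomes, 1.60 ± 0.14 (SE, adjusted p = 1.46e-13). Its constitutive paralog Hsp90ab1 was called on the monosome side, with 8843, 9389 and 10199.9 and 4481, 3878 and 4883 CPM, -1.11 ± 0.09 (SE, adjusted p = 6.16e-14). The call for Hsp90ab1 was lost without the second WT gradient, at -0.95, and with no filter on low counts. Of the 8 cytosolic chaperonin genes, 2 (25%) were called on the high polysome side, Cct7 at 1.01 ± 0.10 and Cct6a at 1.004 ± 0.10. Both calls lie at the threshold of 1 and were lost under the 10 CPM filter, at 0.93 and 0.92. That filter shifted the log2 ratios of genes by a median of -0.08.

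Histone messages end in a stem-loop in place of a poly(A) tail, and the library method primes on poly(A), so that counts of replication-dependent histones can come from the share of transcripts that were polyadenylated or from primed A-rich stretches, and single members share sequence. Of 32 tested, 4 (12.5%) were called on the high side and 1 (3.1%) on the monosome side, against 10.5% and 19.6% of all genes. Of the 32, 27 had their highest mean in low polysomes. The medians per gradient, 0.37, 0.78 and -0.08, differed by more than those of any other list of 30 or more genes. Linker histones were the highest members. Hist1h1b had 202, 124 and 148 CPM in monosomes, 227, 176 and 367 in low polysomes and 575, 673 and 515 in high polysomes, 1.90 ± 0.16 (SE, adjusted p = 9.17e-14). Hist1h1d and Hist1h1c were at 1.69 ± 0.23 and 1.41 ± 0.17. Among replacement histones, Cenpa, the centromeric variant, had 1268, 1296 and 1261 CPM in monosomes and 221, 231 and 277 in high polysomes, -2.40 ± 0.10 (SE, adjusted p = 9.95e-25), and H2afv was at -1.41 ± 0.10. The macroH2A genes H2afy and H2afy2 and the linker variant H1fx were on the high polysome side, at 1.28 ± 0.11, 1.38 ± 0.22 and 1.73 ± 0.17.

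Messages known for control at the level of translation were examined one by one. Atf4, the effector of the integrated stress response whose uORFs hold its translation down in unstressed cells, had 913, 959 and 984 CPM in monosomes, 1658, 1476 and 1427 in low polysomes and 1042, 971 and 1006 in high polysomes, 0.08 ± 0.10 (SE, adjusted p = 0.515). All low polysome libraries stood above the others, while monosome and high polysome libraries overlapped. Ddit3, a stress factor with an inhibitory uORF, had 75, 62.6 and 141 CPM in monosomes and 12.5, 7.93 and 11.1 in high polysomes, -3.13 ± 0.23 (SE, adjusted p = 3.14e-16). Every monosome library was more than 5 times every high polysome library. Ppp1r15a, a phosphatase subunit of the same response, was at -1.35 ± 0.15 (SE, adjusted p = 1.60e-10), and its paralog Ppp1r15b was not called, at 0.23 ± 0.11. In all, 2 of 13 uORF-bearing stress messages were called on the monosome side, near the background of 19.6%, and none on the high polysome side by limma or DESeq2, where edgeR called 1.

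Polyamine messages showed the antizymes on the monosome side. Oaz1, whose complete frame is reached by a ribosomal frameshift, had 74.3, 67.1 and 66.3 CPM in monosomes, 67.7, 80.1 and 72.5 in low polysomes and 15.6, 16.6 and 16.6 in high polysomes, -2.08 ± 0.19 (SE, adjusted p = 2.97e-13), and Oaz2 was at -1.26 ± 0.13 (SE, adjusted p = 2.93e-11). Amd1, which carries a uORF, was at -1.60 ± 0.42 (SE, adjusted p = 0.00107), on 9.38, 14.2 and 11.5 CPM in monosomes and 3.51, 2.52 and 5.41 in high polysomes. Its call was lost when the second WT gradient was left out, at -1.13. Odc1 was not called, at -0.07 ± 0.23, and the spermidine synthase Srm was on the high polysome side, at 1.08 ± 0.13, a call lost without the first WT gradient, at 0.95. Of iron-responsive messages, Fth1, the ferritin heavy chain, had 478, 358 and 468 CPM in monosomes and 195, 165 and 223 in high polysomes, -1.16 ± 0.11 (SE, adjusted p = 3.67e-12), and Epas1, which also bears a 5′ iron-responsive element, was at -1.20 ± 0.21 (SE, adjusted p = 3.07e-06). Tfrc, whose elements lie in the 3′ UTR, was not called, at 0.37 ± 0.13. Fth1 libraries of the 2 groups did not overlap.

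Selenoproteins, in which a UGA codon is read as selenocysteine, were split. On the monosome side were 7 of 19 members (36.8%) and on the high polysome side 1 (5.26%), against 19.6% and 10.5% of all genes. The list median was 0.30, and 10 of the 19 members lay above 0. Gpx1, the cytosolic glutathione peroxidase, had 7419.7, 6857 and 6104 CPM in monosomes, 6286, 6407 and 6545 in low polysomes and 789, 763 and 821 in high polysomes, -3.10 ± 0.09 (SE, adjusted p = 2.60e-30). Its low polysome libraries kept the monosome level. Gpx4 and Selenoh were at -2.86 ± 0.21 and -2.77 ± 0.13. Txnrd1, a thioredoxin reductase whose selenocysteine is the residue before the last, had 135, 145 and 151 CPM in monosomes and 523, 509 and 387 in high polysomes, 1.71 ± 0.12 (SE, adjusted p = 8.52e-17). The frames of Gpx1 and Selenoh are 606 and 351 nt and that of Txnrd1 1500 nt.

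Splicing regulators included several low messages. Clk1, a kinase of SR proteins known to keep introns in much of its transcript, had 113, 83.9 and 131 CPM in monosomes, 35.3, 38.5 and 45.8 in low polysomes and 9.36, 13.3 and 16.2 in high polysomes, -3.04 ± 0.20 (SE, adjusted p = 1.25e-17). Srsf5 and Luc7l3 were at -2.24 ± 0.14 (SE, adjusted p = 3.42e-18) and -2.00 ± 0.13 (SE, adjusted p = 2.13e-17). Of 46 SR and hnRNP genes, 9 were on the monosome side and 4 on the high polysome side, a split of calls close to the background. Without the second WT gradient, the count on the high polysome side was 8. Hnrnpa0 and Hnrnpd, on that side with Hnrnpab, were at 1.64 ± 0.10 and 1.38 ± 0.12.

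Regulators of the cell cycle were called about as often as all genes. Of 43 cyclins, CDKs and inhibitors, 6 were called on the high side and 7 on the monosome side, near the background of 30.1% for both sides together, with a median of -0.02. E2f1, a transcription factor of the G1 to S step, had 428, 521 and 424 CPM in monosomes, 376, 368 and 428 in low polysomes and 53.4, 55.1 and 82.8 in high polysomes, -2.85 ± 0.13 (SE, adjusted p = 1.52e-23). Ccnl1 and Ccng1 were at -2.19 ± 0.16 and -2.11 ± 0.14, and Ccne1, Ccnh and Cdkn2a on the other side at 1.27 ± 0.12, 1.33 ± 0.19 and 1.55 ± 0.15. Ccnd1 and the inhibitor Cdkn1a were not called, at 0.28 ± 0.12 and -0.47 ± 0.10. Of 27 naive pluripotency regulators, 6 (22.2%, against 10.5% of all genes) were called on the high side and 1 on the monosome side, with a median of 0.41. All high polysome libraries lay above all monosome libraries for 16 of them, against 30.6% of all genes. Tfcp2l1, a factor of the naive network, had 379.7, 383 and 355 CPM in monosomes and 928, 981 and 908 in high polysomes, 1.33 ± 0.10 (SE, adjusted p = 1.93e-15). Nr0b1 was at 1.32 ± 0.22. Pou5f1 had 33.5, 21.9 and 38 CPM in monosomes and 73.7, 71.4 and 56.4 in high polysomes, 1.11 ± 0.21 (SE, adjusted p = 1.16e-05), a call lost without the second WT gradient, at 0.91. Nanog and Sox2 were not called, at 0.80 ± 0.11 and 0.35 ± 0.10, nor was Lin28a, at 0.02 ± 0.19. Counts of Pou5f1 and of Gapdh, which had 5.36, 1.94 and 1.77 CPM in monosomes, hold only the reads that their many processed copies do not share.

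The genes targeted in the wider study were measured as well. Dgcr8, the RNA binding partner of Drosha in microRNA processing, had 76.3, 68.4 and 79.6 CPM in monosomes, 51.8, 70 and 66.5 in low polysomes and 26.1, 27.4 and 29.6 in high polysomes of WT cells, -1.43 ± 0.18 (SE, adjusted p = 3.40e-09). Monosome and high polysome libraries did not overlap, while those of monosomes and low polysomes did. Dgcr8 was 1 of 2 among 15 microRNA machinery genes (13.3%) on the monosome side, against 19.6% of all genes. None of the 15 was called on the high polysome side, against 10.5% of all genes. The other member on the monosome side was Ago4, at -1.41 ± 0.62, a call lost without the gradient block. Drosha, Dicer1 and Ago2 were at 0.82 ± 0.15, 0.92 ± 0.22 and 0.997 ± 0.11, none of them called. Under total counts, which shifted the log2 ratios of genes by a median of 0.08, Dicer1 and Ago2 passed the threshold, at 1.01 and 1.08. Ddx6, a helicase of translational repression and decay, was at 0.35 ± 0.11. Of 37 decay genes, 2 (5.41%) were called high and 4 (10.8%) on the monosome side, both below the shares of all genes. The deadenylases Cnot6 and Cnot7 were at -1.43 ± 0.16 and -1.11 ± 0.17. Cnot7 fell short of the threshold without the second WT gradient, at -0.99.

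Large families were compared by count. There were 282 Zfp zinc finger genes, many of which encode DNA binding repressors. Of the 282, 80 (28.4%) were called on the monosome side and 2 (0.71%) on the high polysome side, against 19.6% and 10.5% of all genes. Their median was -0.57, with medians per gradient of -0.48, -0.50 and -0.55. Zfp57, which protects imprinted methylation, had 189.5, 214 and 217 CPM in monosomes and 16.8, 25.6 and 16.9 in high polysomes, -3.40 ± 0.17 (SE, adjusted p = 1.54e-22). Zfp264 and Zfp692 were at -3.08 ± 0.24 and -2.54 ± 0.18, and the highest members with a mean of 50 counts, Zfp106 and Zfp516, at 0.72 ± 0.11 and 0.68 ± 0.12. Of 212 solute carriers, 34 were on the high side and 19 on the monosome side. The amino acid transporter Slc7a5 had 634, 667 and 578 CPM in monosomes and 2168, 1847 and 2534 in high polysomes, 1.79 ± 0.13 (SE, adjusted p = 1.57e-16), and the monocarboxylate transporter Slc16a1 was at 1.88 ± 0.12. The lowest with a mean of 50 counts were the mitochondrial iron importers Slc25a37 and Slc25a28, at -3.33 ± 0.18 (SE, adjusted p = 1.21e-20) and -2.51 ± 0.15 (SE, adjusted p = 1.20e-19). Motor genes had 9 of 68 (13.2%) on each side, against 10.5% of all genes on the high side and 19.6% on the monosome side, with Kif5a at -2.99 ± 0.23 and Myl12b at 1.49 ± 0.17. With no filter on low counts, the count of motor genes on the high side was 14.

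The lists that remain follow, to be read against 10.5% of all genes on the high side and 19.6% on the monosome side. Aminoacyl-tRNA synthetases had 3 of 23 on the high polysome side, with Hars at 1.31 ± 0.16, and Qars on the monosome side at -1.19 ± 0.11. Glycolytic enzymes had 4 of 17 (23.5%) on the high side and 2 (11.8%) on the monosome side, with Tpi1 at 1.72 ± 0.15 and Ldha at 1.24 ± 0.13. DNA replication genes had 5 of 47 (10.6%) on the high polysome side, close to the background, a count of 10 without the second WT gradient, with the sliding clamp Pcna at 1.49 ± 0.18 and the licensing inhibitor Gmnn at 1.54 ± 0.13, and 1 on the monosome side, the small subunit Pole4, at -1.63 ± 0.11. Among DNA methylation and Polycomb genes, Cbx7 was at -1.63 ± 0.12 and Pcgf2 at -1.24 ± 0.14, while Jarid2 and Rbbp4 were at 1.25 ± 0.11 and 1.26 ± 0.11. The call for Pcgf2 was lost without the second WT gradient, at -0.94. Of 23 immediate early and other short-lived regulators, none was called on either side by limma. Without the fold threshold 3 were called on the high side and 2 on the monosome side, and their log2 ratios spread from -0.95 to 0.82.

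To ask which of these positions are shared by cells without microRNAs, the same ratio was set against that of the Dgcr8 KO gradients by the interaction of genotype and fraction. Of 12851 genes, 1127 (8.77%) had a ratio called higher in WT and 848 (6.6%) one called lower in WT. The balance of the counts depended on scaling, since scaling by the total of each library, without TMM factors, gave 2087 and 293, and the median difference moved from -0.02 to 0.31 log2 units. The ribosomal protein genes had similar medians, -2.06 in WT and -1.98 in KO, with 8 called higher and 4 lower in WT. The other TOP messages had medians of -2.08 and -0.58, and 11 of 17 were called lower in WT and none higher, or 6 and none with total counts. Eef2 had log2 ratios of -2.68, -3.20 and -2.95 in the WT gradients and -1.15, -1.58 and -1.06 in the KO gradients, a difference of -1.68 ± 0.15 (SE, adjusted p = 2.35e-12). Replication-dependent histones had medians of 0.16 and -1.28, with 15 of 32 called higher in WT and none lower. Histone variants had medians of 0.86 and -0.75, with 8 of 11 called higher in WT. Respiratory chain genes, at -0.02 and -1.19, had 30 of 76 called higher in WT and 1 lower, mitochondrial ribosomal protein genes, at 0.24 and -0.58, 24 of 77 and none, and Sm and Lsm genes, at -0.26 and -1.74, 12 of 23 and none. With total counts these 3 lists had 49, 38 and 14 called higher and none lower. In the other direction, adhesion genes, at 0.92 and 1.87, had 11 of 33 called lower in WT, tubulins and actins, at 0.39 and 1.10, 6 of 12, glycolytic enzymes, at 0.48 and 1.08, 6 of 17, and snoRNA hosts, at -4.07 and -3.72, 6 of 17, with none higher in these lists. With total counts 7, 4, 1 and 3 of them were called lower, and 1 tubulin or actin gene higher. Atf4, with ratios of 0.19, 0.02 and 0.03 in WT and -2.00, -2.44 and -1.86 in KO gradients, differed by 2.19 ± 0.15 (SE, adjusted p = 8.49e-15). Proteasome genes, at medians of 1.25 and 1.16, had 1 gene called different. Mitochondrially encoded messages had medians of -4.23 and -3.34. Dgcr8 itself had 50.2 ± 2.58 CPM (SD, n = 3) in KO monosomes, and since the library reads the 3′ end, which a deletion upstream can leave in place, this level is no check of the knockout.

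**Figure D5:**
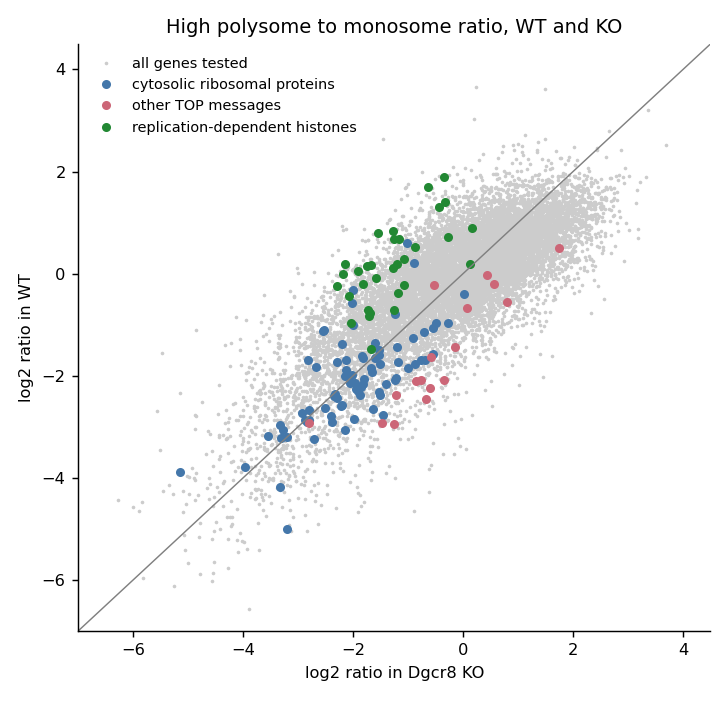
Log2 ratio of high polysome to monosome in WT (y axis) against that in Dgcr8 KO ESCs (x axis) for all genes tested in grey, with ribosomal protein, other TOP and replication-dependent histone genes in colour and the line of equal ratios. Ribosomal protein genes lie about the line, the other TOP genes mostly below it and the histone genes mostly above it.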

How the data were processed

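Monosome, low and high polysome RNA of V6.5 ESCs was sequenced from the 3′ end (QuantSeq). The authors trimmed reads with cutadapt 1.14, aligned them to mm10 with STAR 2.5.3a, keeping unique alignments, and deposited strand-specific counts per GENCODE M14 gene from featureCounts 1.5.3, without ribosomal RNA. Those raw counts for 51467 genes were used here, and 92 spike-in entries were set aside. Coordinates and frames come from GENCODE M21 on GRCm38, in which 51274 genes were matched.

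Genes with 3 CPM or more in 3 or more of the 18 libraries (12851) were fitted with limma 3.58.1 (voom, TMM factors from edgeR 4.0.16) in R 4.3.3, with genotype, fraction and gradient as a block. The replicate number was taken as the gradient, since per the labels the 3 fractions were cut for each sample, though no label states that a number marks a gradient. Deviations of high polysome and monosome libraries of a number correlated at 0.11, 0.11 and 0.07, and all others were negative. Deviations from a group mean cancel out within the group, so negative values follow from the positive ones and nothing is read from their sign. Calls needed a Benjamini-Hochberg adjusted p under 0.05 and an absolute log2 ratio over 1. CPM printed for single genes are scaled by the TMM factors, and the summed CPM of the marker lists are of total counts. Alternatives used edgeR, DESeq2 1.42.0, other scaling and filters, and left-out gradients, of which those without a KO gradient were chosen after seeing the data.

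The gene lists and the rule for named genes were chosen with earlier results of these data known. By that rule the 10 highest and 10 lowest protein-coding genes, the 5 highest and 5 lowest other genes and the 3 highest and 3 lowest of each list were named, at a mean of 50 counts, beside a fixed set. Of the genes so named, some are not reported here. Labels do not say whether gradients came from separate cultures, so p-values measure the spread between these gradients.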

Additional observations from a re-analysis of the deposited data

Results flagged for a closer look

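The log2 ratio of high polysome to monosome differed between WT and KO ESCs, by the interaction of genotype and fraction in limma, for 56 of the 234 genes named by rule. Values are the WT ratio minus the KO ratio, and negative values mean a ratio lower in WT. Under total counts the median difference over all genes moved from -0.02 to 0.31 log2 units, so the smallest of the negative differences are the least settled. Over all genes tested 15.4% were called different, and since many of the named genes were picked for extreme ratios in WT, which enter the difference, nothing is read from their share.

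Among elongation and poly(A) binding factors the difference was -1.79 for Eef1b2, -1.68 for Eef2, -1.63 for Eef1a1, -1.44 for Pabpc1 and -1.23 for Eef1d. Initiation factors and Atf4 had ratios higher in WT, by 1.09 for Eif1, 1.22 for Eif6, 1.78 for Eif5a, 1.98 for Eif1ax and 2.19 for Atf4. Ribosomal protein genes and a pseudogene differed by 1.25 for Rps13, 1.43 for Rps25, 1.63 for Rps27a and 2.25 for Gm9800, where reads shared with gene copies were not counted. Synthetases differed by -1.87 for Qars, -1.20 for Vars and -1.09 for Cars. Heat shock genes differed by -1.71 for Hsp90ab1 and -1.33 for Hspa8, and tubulins by -1.65 for Tubb5, -1.49 for Tuba1b and -1.48 for Tubb2b. Enzymes, laminins and the sterol regulator had -1.72 for Gpi1, -1.16 for Pfkp, -1.48 for Lama5, -1.35 for Lamb2, -1.33 for Selenoi and -1.28 for Srebf1. Noncoding or poorly coding transcripts had -1.70 for 1810032O08Rik, -1.68 for 6720427I07Rik, -1.35 for Snhg11, -1.16 for Snhg6 and -1.07 for Gas5, and Tagap1 had -1.18. Histones were higher in WT, by 1.21 for H2afv, 1.502 for Hist1h2ae, 1.74 for H1fx, 1.75 for Hist1h1c, 1.79 for H2afj, 2.25 for Hist1h1b, 2.33 for Hist1h1d and 2.35 for Hist1h4d. RNA processing genes had 1.04 for Cnot8, 1.06 for Hnrnpab, 1.13 for Lsm3 and 2.08 for Snrpd3. Motors and their light chains had 1.08 for Myl12b, 1.35 for Myl12a and 1.73 for Dynll1. Polyamine, replication, signalling and pluripotency genes had 1.03 for Azin1, 1.20 for Gmnn, 1.43 for Gins1, 1.30 for Ywhah, 1.51 for Id3, 1.57 for Dppa5a and 1.74 for Pou5f1.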

How the results depend on the processing

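The genes called were 1347 on the high polysome and 2515 on the monosome side. With a replicate block removed the counts were 1377 and 2485, of which 3776 calls were shared. With edgeR they were 1423 and 2481, with DESeq2 1374 and 2389, with DESeq2 size factors 1351 and 2509, with total counts 1628 and 2344, with the 6 libraries alone 1327 and 2553, and without each WT gradient 1264 to 1528 and 2202 to 2349. Without the fold threshold 3438 genes were called on the high polysome side, and with no filter 4857 on the monosome side, from 21370 genes. With total counts 2087 genes were called higher and 293 lower in WT than in KO, and the classes of shortest and longest frames had medians of -0.65 and 0.33. Of the 234 genes named by rule, none was called on the opposite side in any of these fits, and the gradient block, edgeR and DESeq2 changed no call among them. Relative to the main fit, log2 ratios shifted by a median of 0.080 with total counts and -0.082 with the 10 CPM filter. The median shift was 0.105 with no filter and 0.077 without the second WT gradient. List medians that moved by more than the spread between gradients follow, and their moves include this common shift. With total counts, the list median was 0.59 (initiation factors), 0.14 (iron messages), 0.060 (respiratory chain), 1.33 (proteasome), 0.46 (tRNA synthetases), 0.13 (decay), -0.50 (Zfp), 0.56 (glycolysis), 0.44 (replication) and 0.22 (Polycomb). With a filter of 10 CPM, the list median was 0.43 (initiation factors), -0.27 (uORF messages), 0.15 (iron messages), -0.10 (respiratory chain), 1.16 (proteasome), 0.30 (tRNA synthetases), 0.32 (pluripotency), -0.015 (decay), -0.64 (Zfp), 0.39 (glycolysis), 0.084 (Polycomb) and -3.47 (other noncoding RNAs). With no filter, the list median was 0.62 (initiation factors), 0.16 (iron messages), -3.61 (mitochondrial messages), 0.085 (respiratory chain), 0.35 (mitochondrial ribosome), 1.35 (proteasome), 0.48 (tRNA synthetases), 0.51 (pluripotency), 0.12 (microRNA machinery), 0.15 (decay), -0.16 (Sm and Lsm), 0.063 (solute carriers), -0.035 (motors), 1.03 (adhesion), 0.69 (glycolysis), 0.97 (cholesterol), 0.47 (replication), 0.25 (Polycomb) and -2.21 (other noncoding RNAs). With edgeR, the list median was 0.17 (Polycomb). With DESeq2, the list median was 0.52 (initiation factors) and 0.17 (Polycomb). Leaving out each WT gradient in turn, list medians ranged over 0.43 to 0.53 (initiation factors), -0.17 to -0.0038 (uORF messages), -0.098 to 0.29 (iron messages), -4.17 to -3.96 (mitochondrial messages), -0.032 to 0.15 (respiratory chain), 0.19 to 0.36 (mitochondrial ribosome), 1.24 to 1.31 (proteasome), 0.38 to 0.51 (tRNA synthetases), 0.44 to 0.53 (pluripotency), 0.019 to 0.061 (decay), -0.085 to 0.10 (SR and hnRNP), -0.63 to -0.49 (Zfp), -0.021 to 0.083 (motors), 0.70 to 1.21 (adhesion), 0.45 to 0.55 (glycolysis), 0.74 to 1.02 (cholesterol), 0.35 to 0.51 (replication) and 0.088 to 0.23 (Polycomb). Where these changes go beyond the common shift and are not those of genes or libraries left out, the cause was not tested. Depth limits the ratios of genes near 3 counts, and 282 genes were at or under that level in all libraries of the monosome group alone and 344 in all of the high polysome group alone.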
